A study of Mus musculus with 2 samples.

Results

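The genes described here are a named set of 10, Ankrd1, Ankrd2, Ankrd23, Csrp3, Xirp1, Xirp2, Mustn1, Fhl1, Fhl2 and Fhl3, taken by symbol from 55536 annotated gene IDs. Their products answer mechanical load in striated muscle. They were measured by total RNA sequencing of the gastrocnemius, a mostly fast calf muscle, of female B6CASTF1/J mice aged 14 days, which are hybrids of C57BL/6J and CAST/EiJ. The 2 libraries, called replicate 2 and replicate 1, belong to 1 group, and no treatment, age or genotype was compared. The labels number them biological replicates 1 and 2. Both libraries carry the label of 3 females, but the tissue text of replicate 2 names a female in the singular. It was therefore not clear whether each library is 1 animal or a pool. What part of the spread between them is technical cannot be told. All intervals and p-values below cover counting error only and compare these 2 libraries, not animals.

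The proteins of Ankrd1, Ankrd2 and Ankrd23 carry ankyrin repeats, bind the N2A segment of titin in the I-band of the sarcomere, and are also found in the nucleus; stretch, injury and loss of the nerve raise their levels in rodent muscle. Csrp3 encodes muscle LIM protein of the Z-disc, Xirp1 and Xirp2 encode the Xin proteins, which bind and protect actin filaments and gather at myotendinous junctions and at sites of sarcomere repair, and Mustn1 encodes a small protein first described in muscle and bone regeneration. The Fhl genes encode LIM-only proteins that dock signalling proteins and transcription factors on the sarcomere and in the nucleus, and changes in FHL1 cause several myopathies in people.

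Gene counts summed to 42105856 in replicate 2 and 35592003 in replicate 1, and the 10 genes took 0.427% of them in replicate 2 and 0.417% in replicate 1. Members had between 255 and 88604 counts in replicate 2 and between 123 and 71604 in replicate 1. The authors deposited 2 quantifications of each library: the aligned tables, from alignments to the transcriptome, which hold the gene tables used unless another source is named, and a direct quantification of the reads. All 10 passed the minimum of a summed count of 20. Of the markers checked, all 6 fast fibre genes and all 9 slow fibre genes reached 1 TPM (abundance per length, scaled to a fixed sum in each library) in both libraries, with summed TPM of 40453 in replicate 2 and 41323 in replicate 1 for the fast list. Of the 6 heart genes, Nppa, Nppb and Myl7 had 0 counts in both libraries and Tnni3 had 21 counts in replicate 2 and 13 in replicate 1. The other heart genes were present, Myh6 at 104 TPM in replicate 2 and 63.25 TPM in replicate 1 and Tnnt2 at 13.6 TPM in replicate 2 and 9.31 TPM in replicate 1.

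The stretches of sequence that the results below turn on are given first. Promoter windows come from RefSeq on GRCm38.p6 and run from 250 bases before to 50 bases after a RefSeq start, 5′ to 3′ on the strand of the gene. Capitals mark a CArG box (CC, then 6 bases that are each A or T, then GG, the site of serum response factor), an M-CAT core (CATTCC, the site of TEAD factors) or a MEF2 box (CTA, then 4 bases that are each A or T, then TAG). Both strands were searched. The windows shown are those of Ankrd23 and Fhl1, whose starts are in dispute below, of Fhl2, in which both windows hold a CArG box, and of Xirp2, which holds the MEF2 box. They lie on the minus strand at chr1:36535690-36535989 and chr1:36536507-36536806 for Ankrd23 and at chr1:43163912-43164211 and chr1:43196712-43197011 for Fhl2. They lie on the plus strand at chrX:56779433-56779732 for Fhl1 and chr2:67445752-67446051 for Xirp2.
Ankrd23 window 1: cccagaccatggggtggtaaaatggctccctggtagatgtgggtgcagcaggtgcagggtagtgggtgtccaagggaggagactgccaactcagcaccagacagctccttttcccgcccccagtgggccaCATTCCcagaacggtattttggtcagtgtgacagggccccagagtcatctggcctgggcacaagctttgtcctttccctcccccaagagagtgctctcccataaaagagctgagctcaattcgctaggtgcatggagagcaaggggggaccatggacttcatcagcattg
Ankrd23 window 2: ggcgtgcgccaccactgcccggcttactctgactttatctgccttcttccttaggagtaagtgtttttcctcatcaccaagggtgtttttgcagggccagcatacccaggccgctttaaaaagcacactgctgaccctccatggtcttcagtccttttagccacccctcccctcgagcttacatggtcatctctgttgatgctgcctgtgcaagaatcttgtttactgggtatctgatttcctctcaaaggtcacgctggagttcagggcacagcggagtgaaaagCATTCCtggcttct
Fhl1 window 1: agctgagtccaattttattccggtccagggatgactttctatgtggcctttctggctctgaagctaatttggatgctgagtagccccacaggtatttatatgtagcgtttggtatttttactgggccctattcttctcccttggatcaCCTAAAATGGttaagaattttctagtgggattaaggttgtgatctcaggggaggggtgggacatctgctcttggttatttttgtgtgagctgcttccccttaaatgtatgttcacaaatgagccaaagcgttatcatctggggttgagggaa
Fhl2 window 1: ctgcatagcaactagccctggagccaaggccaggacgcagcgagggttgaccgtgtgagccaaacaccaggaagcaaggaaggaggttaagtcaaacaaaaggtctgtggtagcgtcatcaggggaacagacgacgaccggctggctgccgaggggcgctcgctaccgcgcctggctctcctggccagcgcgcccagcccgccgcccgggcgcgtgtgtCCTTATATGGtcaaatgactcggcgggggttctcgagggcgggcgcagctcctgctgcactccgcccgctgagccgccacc
Fhl2 window 2: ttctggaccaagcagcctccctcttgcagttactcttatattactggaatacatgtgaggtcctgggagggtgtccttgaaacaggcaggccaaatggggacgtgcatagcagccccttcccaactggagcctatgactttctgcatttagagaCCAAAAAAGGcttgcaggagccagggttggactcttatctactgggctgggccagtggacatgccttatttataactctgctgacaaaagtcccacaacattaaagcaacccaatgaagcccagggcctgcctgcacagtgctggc
Xirp2 window: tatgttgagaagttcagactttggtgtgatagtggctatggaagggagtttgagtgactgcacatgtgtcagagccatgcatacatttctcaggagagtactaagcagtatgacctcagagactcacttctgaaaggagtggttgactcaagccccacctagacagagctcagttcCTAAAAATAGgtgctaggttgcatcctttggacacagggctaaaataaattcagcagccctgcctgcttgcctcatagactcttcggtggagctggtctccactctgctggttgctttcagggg

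Windows were on hand for 9 of the 10 genes, 13 in all, and Xirp1 was the gene with none. A CArG box was present in 3 of these 13 windows and in 1.63% of all 32851 windows. It began 102 bases before the start in Fhl1 window 1, 31 bases before it in Fhl2 window 1 and 96 bases before it in Fhl2 window 2. An M-CAT core was present in 4 of the 13 windows and in 14.7% of all windows. Ankrd1 held it at 2 places, 210 and 123 bases before the start. Both Ankrd23 windows and the Mustn1 window held it once. It lay 120 bases before the start in Ankrd23 window 1. In Ankrd23 window 2 and the Mustn1 window it lay 36 and 24 bases after the RefSeq start. The MEF2 box of Xirp2, which began 74 bases before the start, was the only 1 among the 13 windows, against 0.557% of all windows. An E-box (CANNTG, the site of the myogenic bHLH factors, not in capitals) was in 10 of the 13 windows, against 72.3% of all windows. No match of 1 motif overlapped a match of another in the 13 windows. A match is a run of letters and says nothing of binding.

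Fhl1 was the most abundant of the 10 genes in the gene tables and Fhl2 and Ankrd1 the least. Together the genes summed to 1843 TPM in replicate 2 and 1788 TPM in replicate 1 (1816 ± 39.5, SD, n = 2), of which Fhl1 alone made 40.1% and 40.7%. The order by mean TPM was Fhl1, Ankrd23, Xirp2, Csrp3, Ankrd2, Fhl3, Mustn1, Xirp1, Ankrd1 and Fhl2. Neighbours were counted as apart where the intervals deposited with the TPM values overlapped in neither library and the order was the same in both, which held for 5 of the 9 neighbouring pairs. Csrp3 and Ankrd2, Fhl3 and Mustn1, Mustn1 and Xirp1, and Ankrd1 and Fhl2 were not apart.

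**Figure D1:**
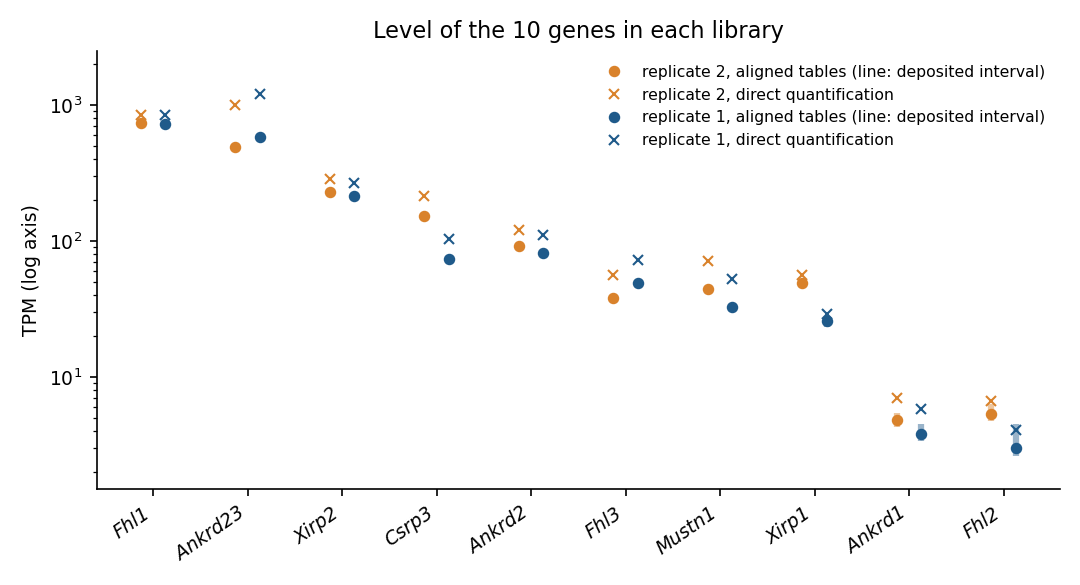
TPM of the 10 genes (log axis) in replicate 2 (orange, left of each pair) and replicate 1 (blue), from the aligned tables (circles, with the deposited interval as a line, often shorter than the circle) and from the direct quantification of the same reads (crosses). Ankrd23 has the widest gap between the quantifications, 1006 against 490.1 TPM in replicate 2 and 1212 against 577 TPM in replicate 1, while Csrp3 and Xirp1 have the widest gaps between the libraries.

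Among the 3 ankyrin repeat genes, Ankrd23 supplied most of the RNA and Ankrd1 almost none. Ankrd23 (also called DARP, known in mouse as a diabetes-related family member; chr1:36530188-36536883, minus strand) stood at 490.1 TPM in replicate 2 and 577 TPM in replicate 1. Ankrd2 (ARPP, described mainly in slow fibres; chr19:42036000-42045110, plus strand) stood at 91.85 TPM in replicate 2 and 80.8 TPM in replicate 1. Ankrd1 (CARP, the form of the heart that injured or denervated skeletal muscle induces; chr19:36111961-36120099, minus strand) stood at 4.84 TPM in replicate 2 and 3.82 TPM in replicate 1. The 3 genes were thus ordered alike in both libraries with no overlap of their intervals. Ankrd23 was 5.34-fold above Ankrd2 in replicate 2 and 7.14-fold in replicate 1, and Ankrd2 was 18.98-fold and 21.2-fold above Ankrd1. Ankrd23 made 83.5% and 87.2% of the summed TPM of the 3 genes, and Ankrd2 made 15.7% and 12.2% (13.9% ± 2.43, SD, n = 2).

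Nearly all Ankrd23 RNA was assigned to transcripts other than the one that encodes the 306-residue protein. The aligned tables and the direct quantification divided Ankrd23 differently. The aligned tables gave Ankrd23-202 69.3% of the gene in replicate 2 and 70.5% in replicate 1. This transcript begins 782 bases upstream of the start of Ankrd23-201, inside Ankrd23 window 2 above, and its annotated coding part of 192 residues lacks the first 114 residues of the longer protein. Ankrd23-204, which starts in Ankrd23 window 1 and skips a 99-base exon for a protein of 273 residues, had 30.3% and 29.3%. Ankrd23-201, which encodes all 306 residues, was listed at 0% in both libraries.

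The direct quantification kept Ankrd23-202 ahead of the other coding transcripts but gave most of the TPM to a short noncoding one. It gave 59.7% in replicate 2 and 59.3% in replicate 1 to Ankrd23-203, a noncoding transcript of 663 bases, 33.4% and 33.0% to Ankrd23-202 and 0.405% and 1.77% to Ankrd23-201. The aligned tables gave Ankrd23-203 0.45% in replicate 2 and 0.20% in replicate 1. Ankrd23-203 held 5630 and 5842 of the gene's directly estimated 26258 and 27584 counts, 21.4% and 21.2%, and its effective length of 320 bases in replicate 2 turned these into the larger share of TPM. Without it, the direct TPM of Ankrd23 was 405 in replicate 2 and 493 in replicate 1, against 490.1 and 577 in the gene tables. These values compare only roughly, since every other member had a higher TPM directly than in the gene tables. That ratio ran from 1.12-fold for Xirp1 in replicate 1 to 1.63-fold for Mustn1 in replicate 2. Counts of Ankrd23 differed less between the quantifications, at 28776 in replicate 2 and 29590 in replicate 1 in the gene tables. The abundance per length of Ankrd23, and its place above or below Fhl1, therefore depended on the share of 1 noncoding transcript.

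Ankrd23 also shares 2109 of its 2697 exonic bases, 78.2%, with Gm42417, a gene model on the same strand that reads through the Ankrd23 exons from a start further upstream. Gm42417 took 1289 counts in replicate 2 and 1458 in replicate 1 in the gene tables, and 6526 in replicate 2 and 6498 in replicate 1 in the direct quantification. In TPM of the gene tables Gm42417 stood at 214 in replicate 2 and 280 in replicate 1, against 490.1 and 577 for Ankrd23. These values per length rested on 1289 and 1458 counts for Gm42417, against 28776 and 29590 for Ankrd23. Reads of the shared exons cannot be told apart, so how many belong to Ankrd23 is uncertain. The deposited posterior standard deviation of the Ankrd23 count was 0.163% in replicate 2 and 0.153% in replicate 1. Cx3cr1, which encodes a receptor of macrophages, spans Xirp1 on the same strand but shares 0 exonic bases with it and had 105 and 45 counts. Gm13601, on the strand opposite to Xirp2, shares 168 exonic bases with it and had 0 counts in both libraries.

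Ankrd2 was divided between a pair of transcripts that differ at the start. Ankrd2-202 begins 38 bases upstream of Ankrd2-201 and uses an ATG in that stretch, which adds 4 residues to the 328 of the shorter form. The stretch around both start codons, at chr19:42036016-42036058 on the plus strand of GENCODE M21 transcripts on GRCm38, shows them in capitals, 12 bases apart.
Ankrd2-202 starts: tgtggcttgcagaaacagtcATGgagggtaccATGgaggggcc
The aligned tables put Ankrd2-202 at 61.5% in replicate 2 and 41.2% in replicate 1, so the leading form changed between the libraries. The deposited posterior standard deviation of the Ankrd2-202 count was 19.5% in replicate 2 and 29.5% in replicate 1, and the direct quantification gave 53.8% and 55.1%. The leading Ankrd1 transcript in all tables was Ankrd1-205, at 53.8% in replicate 2 and 75.8% in replicate 1 in the aligned tables and 91.9% and 93.9% in the direct quantification. It rested on 162 and 157 expected counts. Ankrd1-201, whose protein of 315 residues is 4 residues shorter than that of Ankrd1-205, had 39.3% in replicate 2 and 3.10% in replicate 1 in the aligned tables and 4.17% and 0% in the direct quantification, so its share was unlike in the libraries. In the aligned tables Ankrd1-204 had 5.46% and 8.27% and Ankrd1-203 had 0% and 7.56%, both annotated as targets of nonsense-mediated decay, and Ankrd1-202, which retains an intron, had 1.47% and 5.29%.

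Csrp3, which encodes muscle LIM protein (chr7:48830398-48848033, minus strand), stood at 152 TPM in replicate 2 and 73.9 TPM in replicate 1. In scaled counts replicate 2 was 1.83-fold above replicate 1 (95% exact interval 1.72 to 1.94), the widest gap of the 10 genes. The Csrp3-201 and Csrp3-202 transcripts encode the same 194 residues from starts 4.4 kb apart, and their sum was 99.8% in replicate 2 and 99.2% in replicate 1 of the gene in the aligned tables and 91.8% and 90.0% in the direct quantification. The split between the starts was not stable. Csrp3-201, the upstream start, had 99.8% and 97.7% in the aligned tables but 32.2% and 39.7% in the direct quantification, in which Csrp3-202 had 59.6% and 50.3%. Csrp3-203, an incomplete model of 362 bases with 65 coding residues, had 8.07% in replicate 2 and 9.74% in replicate 1 in the direct quantification, against 0% and 0.43% in the aligned tables. Its direct shares per length rested on 44 and 23 estimated counts, of 3211 and 1329 for the gene. Most of Csrp3 thus encoded the same protein in both quantifications, and the start in use was not resolved.

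Of the Xin genes, Xirp2 (chr2:67446002-67526614, plus strand) was higher than Xirp1 (chr9:120013755-120023598, minus strand) in both libraries. Xirp2 stood at 229 TPM in replicate 2 and 214 TPM in replicate 1, and Xirp1 at 49.0 TPM in replicate 2 and 25.8 TPM in replicate 1. Xirp2 was 4.69-fold and 8.29-fold above Xirp1 per length, a log2 ratio of 2.64 ± 0.58 (SD, n = 2), and the deposited intervals of the genes were separate in each library. Xirp1 differed by 1.89-fold in TPM between the libraries, while Xirp2, with 88604 and 71604 counts the most deeply counted of the 10 genes, differed by 1.07-fold in TPM.

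Every quantification assigned Xirp2 to 1 transcript, Xirp2-202. It had 100% of the gene in both libraries in the aligned tables and, to 3 digits, 100% in the direct quantification. Xirp2-202 and Xirp2-201 start at the same base and differ at 1 splice site: in Xirp2-202 the exon at chr2:67519220-67519353 begins 16 bases earlier. These 16 bases, in capitals below with 30 exonic bases on each side (plus strand, GENCODE M21 transcript), shift the reading frame, which then meets a TAA stop codon after 92 bases of that exon, 1 exon before the end.
Xirp2-202 splice site: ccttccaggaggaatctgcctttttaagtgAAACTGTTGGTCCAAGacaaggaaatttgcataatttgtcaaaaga
The annotated protein of Xirp2-202 has 3283 residues, against 3784 for Xirp2-201, which keeps the frame into the last exon. The Xirp2-201 transcript had 0 expected counts in both libraries, and its directly estimated share was 0.00637% in replicate 2 and 0.00033% in replicate 1. The posterior mean deposited beside it was larger, at 3.02% and 2.24% of the gene. The transcripts differ by 24 bases of 11979, 16 at the splice site and 8 at the 3′ end, so the assignment rests on reads over these bases. Xirp1 was assigned mainly to Xirp1-201, which encodes 1132 residues, at 94.5% in replicate 2 and 92.0% in replicate 1 in the aligned tables and 100% in the direct quantification. The rest in the aligned tables was Xirp1-202, an incomplete model of 321 bases with 77 coding residues, at 5.53% in replicate 2 and 8.00% in replicate 1. These shares per length rested on 19.5 and 12.9 expected counts, of 8651 and 3852 for the gene.

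Mustn1 (chr14:30879200-30881610, plus strand), whose 1 annotated transcript encodes 82 residues, stood at 43.9 TPM in replicate 2 and 32.55 TPM in replicate 1. It was the only member with a single annotated transcript, so no division of reads within the gene enters its value. The direct quantification gave 71.4 TPM in replicate 2 and 52.1 TPM in replicate 1, 1.63-fold and 1.60-fold the level in the gene tables. Counts of Mustn1 differed less, at 1868 and 1177 directly against 1623 and 1041 in the gene tables.

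Fhl1 dominated the Fhl family. It stood at 739 TPM in replicate 2 and 727 TPM in replicate 1 (chrX:56731787-56793346, plus strand), which was 94.5% and 93.3% of the summed TPM of Fhl1, Fhl2 and Fhl3. Fhl3 (chr4:124700701-124708611, plus strand), known in cultured myoblasts as a partner of MyoD, stood at 37.8 TPM in replicate 2 and 49.1 TPM in replicate 1. Fhl2 (chr1:43123074-43196984, minus strand), the form of the heart, stood at 5.36 TPM in replicate 2, on 255 counts, and 2.99 TPM in replicate 1, on 123 counts. The 3 genes kept this order in both libraries: Fhl1 was 19.6-fold and 14.8-fold above Fhl3, and Fhl3 was 7.05-fold and 16.4-fold above Fhl2. Fhl1 was the 55th nuclear protein-coding gene by mean TPM of 22015, and Ankrd23 the 78th.

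The start from which Fhl1 is transcribed was not settled by the tables. The gene has a distal start, a middle start 47.9 kb downstream and another, 6.8 kb further on, nearer still to the shared exons. In the aligned tables the middle start had 82.0% of Fhl1 in replicate 2 and 75.3% in replicate 1, most of it Fhl1-204 with 69.9% and 68.1%, while the distal start had 5.30% and 5.91%. In the direct quantification the distal start had 62.4% in replicate 2 and 79.3% in replicate 1 and the middle start 23.3% and 3.31%, with Fhl1-201 leading at 30.1% and 50.5%. The start of Fhl1-207 had 11.96% and 15.8% in the aligned tables and 13.9% and 17.0% in the direct quantification. Gene counts were close in the quantifications, 42854 and 36228 in the gene tables and 44676 and 38021 directly. Gene TPM was 739 in replicate 2 and 727 in replicate 1 in the gene tables, and 836 in each library directly.

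The choice of start decides the first residues of the protein. Fhl1-201 begins at an ATG in the exon shared by both starts and encodes 280 residues. Fhl1-204 has an ATG of its own in its first exon, at chrX:56779773-56779794, which is joined in frame to the shared exon at chrX:56787989 and adds 16 residues, for 296 in all. Both parts are shown on the plus strand from GENCODE M21 transcripts, the ATG of Fhl1-201 in capitals. The RefSeq start in Fhl1 window 1 lies 40 bases before the start of Fhl1-204.
Fhl1-204 first exon: atggcttctcaaagacactcag
Fhl1-204 second exon: gtccctccagctataaggtgggcaccATG

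**Figure D2:**
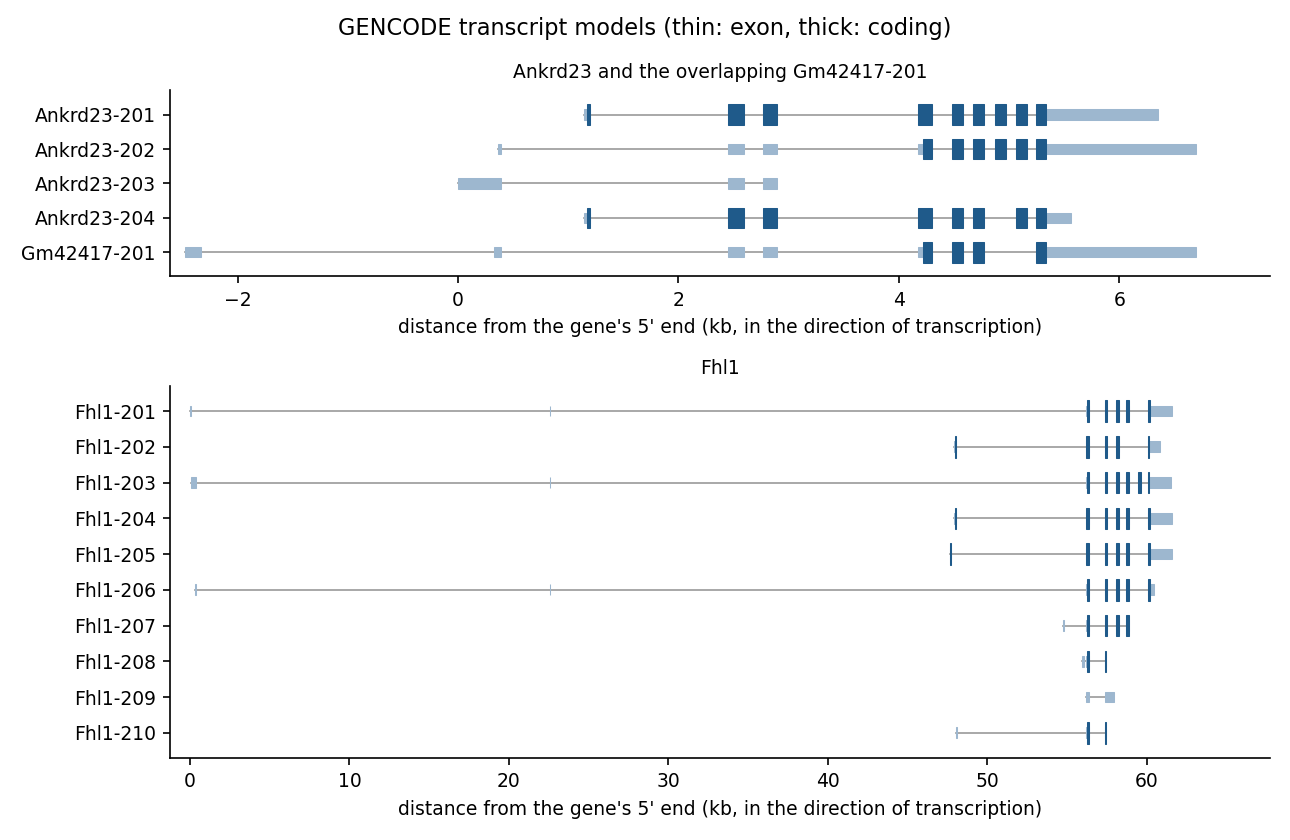
GENCODE M21 transcript models of Ankrd23 with the overlapping Gm42417-201 (top) and of Fhl1 (bottom), drawn to scale in kb from the 5′ end of each gene. Light blocks are exons and dark blocks coding parts. The Ankrd23 models share exons and differ at the start and the 3′ end, and the Fhl1 models differ in 4 groups of first exons and share the exons at the right.

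The alternative Fhl1 exons were also divided differently. Fhl1-203 starts at the distal start and holds a 200-base exon at chrX:56791239-56791438 that is coding throughout, for a protein of 323 residues; forms of FHL1 with such an added exon are known in people and mice to enter the nucleus. Fhl1-203 had 0.84% of Fhl1 in replicate 2 and 0.80% in replicate 1 in the aligned tables but 29.0% and 26.6% in the direct quantification, on 17248 and 13617 estimated counts. The exon is shown on the plus strand from the GENCODE M21 transcript.
Fhl1-203 exon: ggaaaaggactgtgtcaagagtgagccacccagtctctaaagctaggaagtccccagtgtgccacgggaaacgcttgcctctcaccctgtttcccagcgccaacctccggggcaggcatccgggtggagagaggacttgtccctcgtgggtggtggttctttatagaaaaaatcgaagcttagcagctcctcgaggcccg
Fhl1-202, which leaves out the 187-base exon at chrX:56790464-56790650 and encodes 210 residues, was low in both, with 1.95% in replicate 2 and 1.14% in replicate 1 in the aligned tables and 3.03% and 2.21% in the direct quantification. Fhl1-210, an incomplete model from the middle start, had 10.1% and 6.04% in the aligned tables, on 572 and 290 expected counts, and 0% in the direct quantification.

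Fhl2 and Fhl3 were less divided. Fhl2-201, which starts in Fhl2 window 1 above, had 100% in both libraries in the aligned tables and 100% in replicate 2 and 72.8% in replicate 1 in the direct quantification, and Fhl2-202, which encodes the same 279 residues, had the other 27.2% in replicate 1. Fhl3-201, which encodes 289 residues, had 88.4% in replicate 2 and 80.6% in replicate 1 in the aligned tables and 65.2% and 58.8% in the direct quantification, the rest being Fhl3-202, which encodes 280 residues.

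Over all 37 transcripts of the 10 genes, the leading transcript was the same in both libraries for 8 of the 9 genes with more than 1 transcript in the aligned tables and for 9 of 9 in the direct quantification. It was the same in all 4 tables for 5 of the 9: Ankrd1, Xirp1, Xirp2, Fhl2 and Fhl3. Ankrd2, Ankrd23, Csrp3 and Fhl1 were the 4 that differed.

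**Figure D3:**
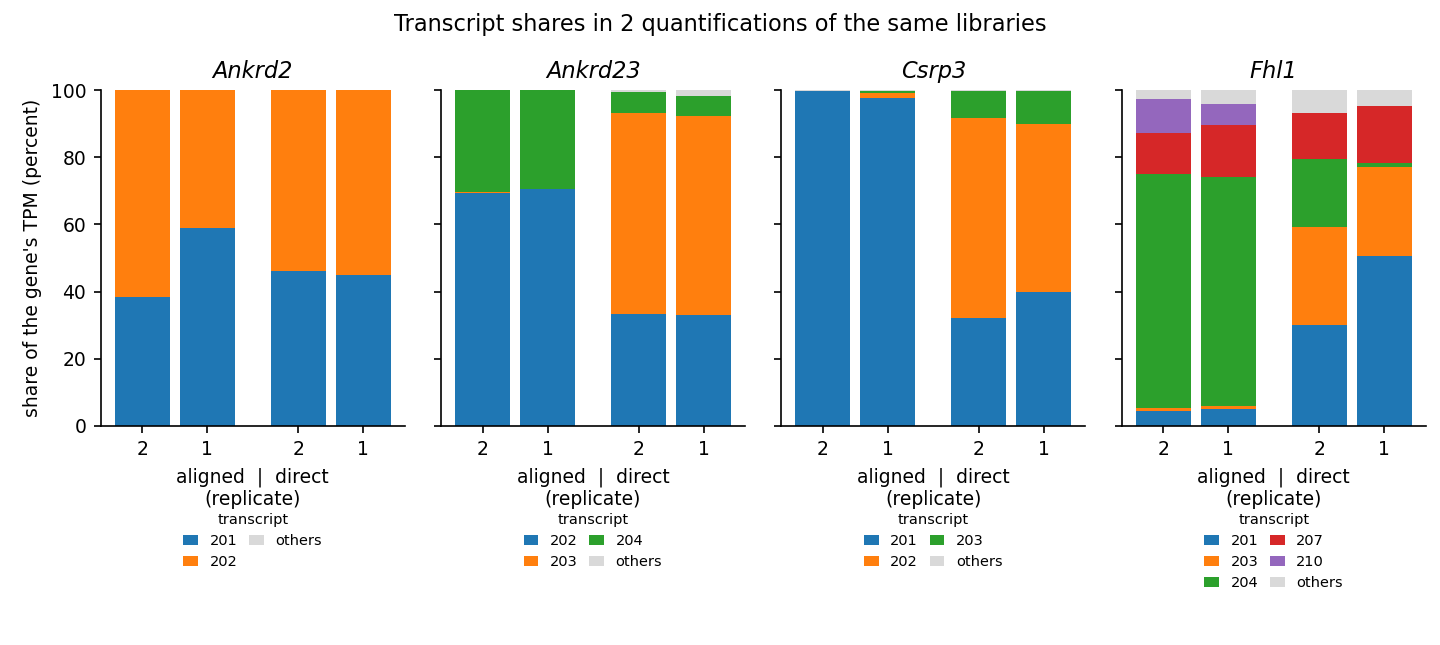
Share of each gene's TPM (percent) by transcript for the 4 genes whose leading transcript was not the same in all tables, in replicates 2 and 1 of the aligned tables (left pair) and of the direct quantification (right pair). For Ankrd23, Csrp3 and Fhl1 the pairs of libraries resemble each other more than the quantifications do: Csrp3-201 has 99.8% and 97.7% in replicates 2 and 1 of the aligned tables, against 32.2% and 39.7%.

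Between the libraries, Csrp3, Xirp1 and Fhl2 were higher in replicate 2, Fhl3 and Ankrd23 were lower, and the remaining 5 genes lay within 1.20-fold. Ratios are of counts scaled with TMM, which centred the median gene at a log2 ratio of 0.00. Called genes have an adjusted p under 0.05 in a two-sided exact binomial test, with Benjamini-Hochberg adjustment over all 15734 genes tested, and a difference of at least 2-fold. Of all genes 3.39% were called and of the 10 genes 0. At 1.5-fold 8.07% of all genes were called and 3 of the 10, which were Csrp3, Xirp1 and Fhl2. The difference in 8 of the 10 genes passed the adjusted p alone, as it did for 31.5% of all genes. The members' median log2 ratio was 0.08.

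Csrp3 had 3858 counts in replicate 2 and 1625 in replicate 1, a log2 ratio of 0.87 (95% exact interval 0.79 to 0.95, exact binomial test with adjustment, adjusted p = 7.11e-97). Xirp1 had 8651 counts in replicate 2 and 3852 in replicate 1, a log2 ratio of 0.79 (0.73 to 0.84, exact binomial test, adjusted p = 4.94e-184). Fhl2 had 255 counts in replicate 2 and 123 in replicate 1, a log2 ratio of 0.67 with the widest interval of the 10 (0.36 to 1.00, exact binomial test, adjusted p = 0.000103). These 3 genes were higher in replicate 2 under each of the scalings tried. With counts scaled to the library total, Csrp3 passed 2-fold, and with counts scaled to the spike-ins, Csrp3 and Xirp1 did, while those scalings moved the median log2 ratio of all genes to 0.14 and 0.23.

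Fhl3 had 1847 counts in replicate 2 and 2019 in replicate 1, a log2 ratio of -0.51 (-0.60 to -0.41). Ankrd23 had 28776 counts in replicate 2 and 29590 in replicate 1, a log2 ratio of -0.42 (-0.44 to -0.39). Both were lower in replicate 2 in TPM as well as in scaled counts. Mustn1 had 1623 counts in replicate 2 and 1041 in replicate 1 and a log2 ratio of 0.26 (0.15 to 0.38). Ankrd1 had 288 counts in replicate 2 and 202 in replicate 1 and a log2 ratio of 0.13 (-0.13 to 0.40, exact binomial test, adjusted p = 0.504). Ankrd2 had 3059 counts in replicate 2 and 2312 in replicate 1 and a log2 ratio of 0.03 (-0.05 to 0.10, exact binomial test, adjusted p = 0.695). Neither interval excluded 0. Xirp2 and Fhl1, at -0.07 and -0.14, were below 0 by TMM and above it by TPM, at 0.10 and 0.02, since TPM moved the median of all genes to 0.17. Within families the ratios were unlike: Xirp1 stood at 0.79 and Xirp2 at -0.07 (0.92 and 0.06 with library totals, 1.02 and 0.16 with spike-ins), and Fhl2 lay above 0 and Fhl3 below it under each scaling tried.

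**Figure D4:**
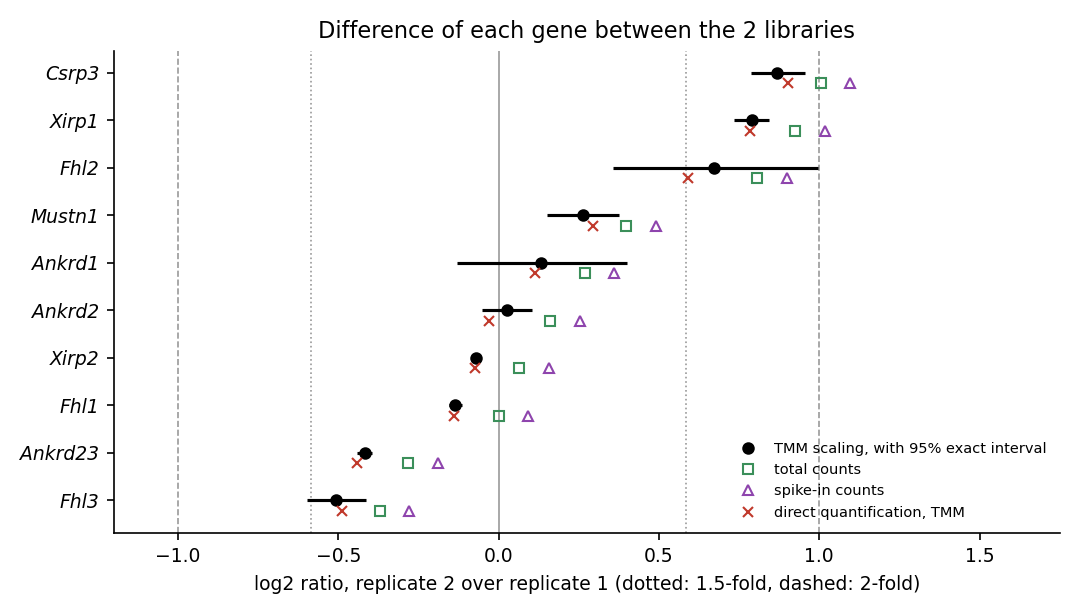
Log2 ratio of replicate 2 over replicate 1 for each of the 10 genes, with TMM scaling and its 95% exact interval in black and total-count, spike-in and direct values as coloured symbols. Csrp3, Xirp1 and Fhl2 lie right of the 1.5-fold line and no gene lies past 2-fold by TMM, while the signs of Xirp2 and Fhl1 turn with the scaling and that of Ankrd2, near 0, with the quantification.

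Markers of slow fibres differed between the libraries in the same direction as Csrp3. Of 9 slow fibre genes 8 were higher in replicate 2 and 5 passed 1.5-fold, among them Myh7, the slow myosin heavy chain, at 528 TPM in replicate 2 and 288 TPM in replicate 1. Their summed TPM was 2771 in replicate 2 and 1635 in replicate 1, and their median log2 ratio 0.59. Csrp3, which is known to be enriched in slow muscle, had a log2 ratio of 0.87, and Ankrd2, also known from slow fibres, 0.03. All 6 fast fibre genes were lower in replicate 2 by TMM, with a median log2 ratio of -0.26, but 5 were with library totals, 4 in TPM and 3 with spike-ins. Ankrd23, at -0.42 by TMM, and Fhl3, at -0.51, were lower under each of these scalings. In bulk tissue, fewer cells of a type and less RNA per cell cannot be told apart.

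Summed TPM of the markers of other cells was also higher in replicate 2, in a unit whose median over all genes was itself shifted by 0.17 (log2). The 6 smooth muscle and mural genes summed to 475 TPM in replicate 2 and 274 TPM in replicate 1, with 2 called, Acta2 and Cnn1. Acta2 alone had 306 and 119 TPM of these sums. By TMM 4 of the 6 were higher, while Rgs5 and Pdgfrb were lower, at log2 ratios of -0.21 and -0.25. The 5 fibro-adipogenic genes summed to 3383 and 2117 TPM, of which Col1a1 had 1958 and 1128 TPM and Col3a1 1135 and 759 TPM. By TMM the log2 ratios were 0.63 for Col1a1, 0.42 for Col3a1, 0.19 for Lum, 0.18 for Dcn and -0.07 for Pdgfra. The 5 tendon genes summed to 221 and 158 TPM with all 5 higher in replicate 2. The 4 developing fibre genes summed to 243 and 167 TPM with all 4 higher. The 5 cartilage and bone genes summed to 14.3 and 7.92 TPM, with Ibsp at 0 in both libraries. The 4 endothelial genes summed to 140 and 136 TPM, a log2 ratio of 0.05 that was below the shift of the median gene. By TMM 2 of them were higher and 2 lower. Xin proteins are known at myotendinous junctions and Fhl2 in smooth muscle, and the part of fibre type, tendon or vessel content in the differences of Csrp3, Xirp1 and Fhl2 was not tested.

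Of 57 genes linked to the 10 by function, 53 were at 1 TPM or more in both libraries. Of the 56 tested, 4 were called higher in replicate 2 and 2 lower, 10.7% in all against 3.39% of all genes, with a median log2 ratio of 0.03. Of the paralogs, Lmcd1, a LIM protein that restrains GATA factors, led with 67.4 TPM in replicate 2 and 47.8 TPM in replicate 1, followed by Csrp1 with 26.0 and 19.4 TPM and Csrp2 with 13.7 and 9.17 TPM. Csrp3 was therefore the most abundant of the Csrp genes in both libraries. The testis form Fhl4 was at 0.16 and 0.12 TPM. None of the 4 paralogs tested was called.

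Partners of the members at the sarcomere were abundant. Of the 7 genes listed for titin and its ligands 0 were called and all 7 lay below 0 by TMM, but 2 did with library totals and 1 with spike-ins; Ttn, titin itself, stood at 2041 TPM in replicate 2 and 1963 TPM in replicate 1, Des, desmin, at 762 and 734 TPM, and Mypn, myopalladin, at 117 and 108 TPM. Of 8 partners of muscle LIM protein 1 was called: Tcap, which encodes telethonin, the titin cap of the Z-disc, stood at 328 TPM in replicate 2 and 623 TPM in replicate 1, a log2 ratio of -1.09 opposite in sign to that of Csrp3. The most abundant of that list, Myoz1, Ldb3 and Actn2, all Z-disc proteins, stood at 968 and 1017, 849 and 905, and 758 and 886 TPM. Of 13 Xin partners 0 were called; Neb, nebulin, stood at 2149 TPM in replicate 2 and 2119 TPM in replicate 1, Flnc, filamin C, at 213 and 154 TPM, and Ctnnb1, beta-catenin, at 119 and 105 TPM.

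Factors that bind the CArG box and the M-CAT core were present in both libraries, and those of the MEF2 box and the E-box were not looked up. Srf, serum response factor, stood at 32.3 TPM in replicate 2 and 25.25 TPM in replicate 1, its coactivators Mrtfa at 18.2 and 10.3 TPM and Mrtfb at 16.2 and 14.7 TPM, and 0 of the 4 genes of that list were called. In the Hippo list Tead1 led with 58.4 TPM in replicate 2 and 52.5 TPM in replicate 1, followed by Vgll2 with 25.8 and 26.9 TPM and Yap1 with 23.9 and 20.2 TPM, and 0 of 11 were called. Both Ankrd1 and Ccn2 are known targets of YAP. Ankrd1, at a log2 ratio of 0.13, was not called, and Ccn2 was called lower, at 9.86 TPM in replicate 2 and 27.3 TPM in replicate 1, a log2 ratio of -1.68. Of the 10 further YAP or SRF targets 4 were called higher in replicate 2, with log2 ratios of 1.60 for Egr1, 1.41 for Cnn1, 1.18 for Acta2 and 1.12 for Fos, and 1 lower. The most abundant of the list were Acta2, smooth muscle actin, at 306 TPM in replicate 2 and 119 TPM in replicate 1, Vcl, vinculin, at 57.9 and 46.7 TPM, and Tagln, transgelin, at 31.5 and 18.0 TPM. The median of that list was 0.44, against 0.00 over all genes tested, with 7 genes higher and 3 lower. Besides Ccn2, the lower genes were Ccn1 and Amotl2, at log2 ratios of -0.71 and -0.57, neither called at 2-fold. Acta2, Cnn1 and Tagln are also in the smooth muscle and mural list above.

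**Figure D5:**
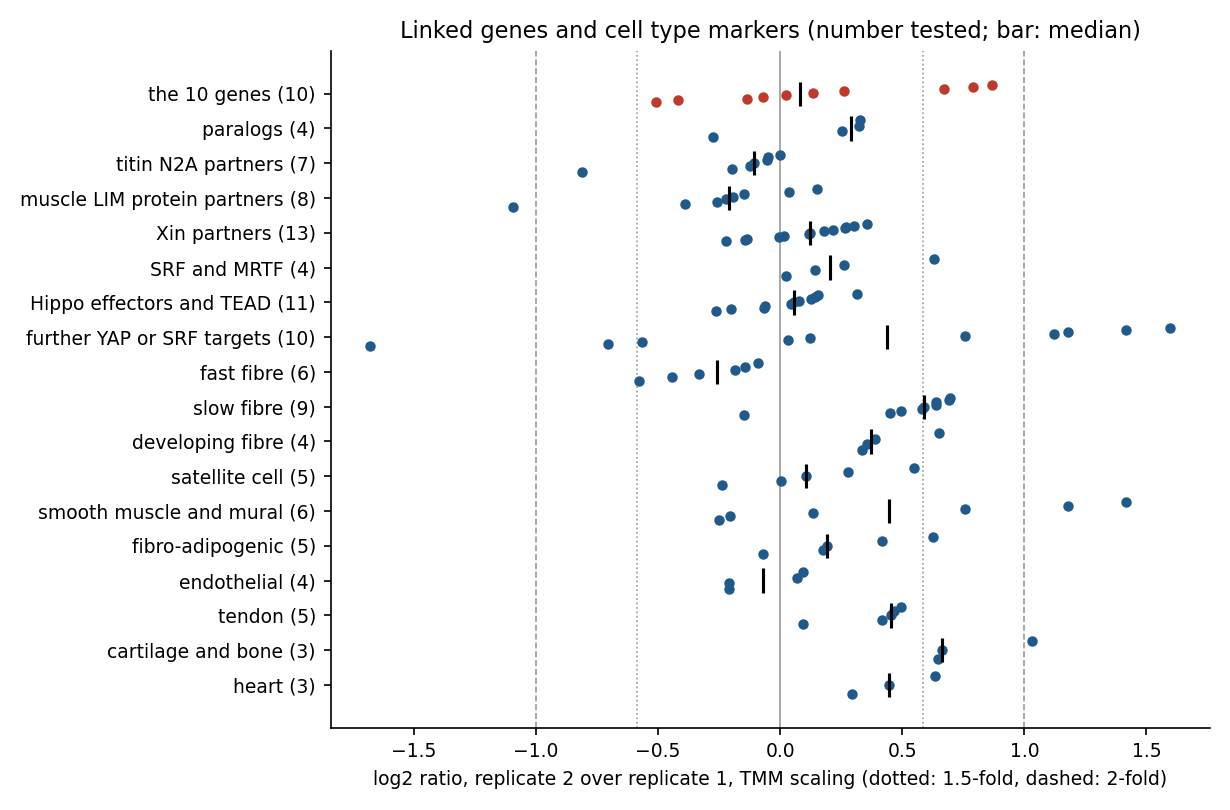
Log2 ratio of replicate 2 over replicate 1 by TMM for each tested gene of the 10 (red), the linked lists and the cell type markers (blue), with the median of each list as a bar. Slow fibre markers, at a median of 0.59, lie right of 0 except for 1 gene, fast fibre markers, at -0.26, lie left of 0, and the 10 genes spread from -0.51 to 0.87.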

How the data were processed

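Per the accompanying notes and file headers, the authors deposited for each library a gene table and a transcript table from alignments to the transcriptome, together called the aligned tables, and a second transcript table quantified from the reads themselves, called the direct quantification. The build is mm10 with the GENCODE M21 annotation, per the labels and headers. The level of the intervals, the aligner and the quantifiers were not given in the sources used. The deposited expected counts divide a read among the features it fits. The deposited TPM values give abundance per length, scaled to a fixed sum over all rows, and a deposited signal column gives their interval and the posterior standard deviation of the count. The interval need not hold the TPM value, as for Fhl1 in replicate 1. The deposited percent of each transcript is its share of the gene's TPM. In the table made from the reads, estimated counts and TPM were summed per gene.

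All 10 members matched 1 gene ID each. For testing, expected counts were rounded. TMM scaling was done with edgeR 4.0.16 (factors 1.05 in replicate 2 and 0.954 in replicate 1). With 1 library on each side the quasi-likelihood test of edgeR has no residual degrees of freedom, so genes whose counts summed to at least 20 were compared by an exact binomial test, two-sided, with Benjamini-Hochberg adjustment over all genes. Ratios used a prior count of 0.5, and 95% intervals are Clopper-Pearson. Taken as 1 group, the libraries had a common coefficient of variation of 0.159 over genes. DESeq2 1.42.0 size factors, total counts, 317175 and 285877 spike-in counts, other filters, CPM and leaving out a library were alternatives. The test was tried on simulated counts drawn with counting error only. That simulation holds no variation between libraries, so it cannot check the test against such variation. Software was Python 3.11.15 with scipy 1.17.1, numpy 2.4.6, pandas 2.3.3 and matplotlib 3.10.9, and R 4.3.3. A further 26248 rows named by a number, and a phiX row, were left out. The reference is that of C57BL/6J, and how many reads of the CAST/EiJ allele it lost is unknown. The members, the linked lists and the markers were chosen with earlier results of these data known. Named are all members, their transcripts at 5% or more of the gene in either library or quantification, the 3 most abundant and every called gene of each linked list, and overlapping genes. Fhl1-202, Ankrd23-201, Xirp2-201, Fhl4, Trim63, Ccn1, Amotl2 and the marker genes were named after their values were seen.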

Additional observations from a re-analysis of the deposited data

How the results depend on the processing

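Of 231 alternative values computed, 183 kept their direction and side of the threshold or stayed within the spread of the libraries, 41 moved, 3 passed the 2-fold threshold that they had missed and 4 changed sign. Part of the 183 could not have moved. With 2 libraries each value lies within the SD of their mean, so leaving out a library could not move a summed TPM, share or ratio. All members pass the count filters, so these leave member ratios unchanged. Scaling to nuclear coding genes cannot change a share or ratio among members. The number of members called, 0, became 1 with counts scaled to the library total, 2 with spike-in scaling and 3 at 1.5-fold, and stayed at 0 with DESeq2 size factors, other filters and the direct quantification. The number of all genes called, 534, became 251 with a summed count of at least 100, a filter that tests fewer genes, and 1270 at 1.5-fold. The log2 ratio of Xirp2 changed sign to 0.065 with library totals and 0.16 with spike-ins, that of Fhl1 to 0.092 with spike-ins, and that of Ankrd2 to -0.028 in the direct quantification. The summed TPM of the 10 genes, 1816, was 2673 in the direct quantification and 3718 among nuclear coding genes, and their sum in CPM, counts scaled to a fixed library total but not divided by length, was 4223. The share of Fhl1 among the 10 genes was 31.3% in the direct quantification and 24.1% in CPM. The share of Ankrd2 in its family was 9.44% in the direct quantification and 8.36% in CPM, and the log2 ratio of Xirp2 over Xirp1 was 3.79 in CPM. Of the 10 ranks, 3 were kept in CPM, which favour long transcripts such as Xirp2. With either library left out, between 6 and 8 ranks were kept: 6 without replicate 1 and 8 without replicate 2. Of the 26 transcripts with at least 5% of their gene in a library of either quantification, the shares of 19 moved by more than the spread of the libraries in the direct quantification, and the cause was not tested.

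No paired analysis was possible because both libraries belong to 1 group. The counts of Ankrd1 and Fhl2, up to 288, limit what can be said of their transcripts, and a spread over 2 libraries is a rough estimate.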

Other observations

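The 5 satellite cell markers summed to 16.6 TPM in replicate 2 and 13.9 TPM in replicate 1. Pax7 had 2.52 and 1.66 TPM of these sums. In this unit the median over all genes was itself shifted by 0.17 (log2). By TMM 4 of the 5 were higher in replicate 2 and 1 lower. The log2 ratios were 0.55 for Pax7, 0.28 for Vcam1, 0.11 for Myf5, 0.004 for Chodl and -0.24 for Calcr. Trim63, the MuRF1 ubiquitin ligase that binds titin, passed 1.5-fold but not 2-fold, at 50.2 TPM in replicate 2 and 78.5 TPM in replicate 1.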
